A study of Mus musculus with 14 samples.

Results

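Matrix metalloproteinases (MMPs), their tissue inhibitors (TIMPs) and the related ADAMTS proteases were followed through mouse lung development. The genes were chosen by symbol in the platform annotation of the arrays: Mmp2, Mmp3, Mmp11, Mmp14, Mmp15, Timp1, Timp2, Timp3, Adamts1 and Adamts2. Of these 10 genes, 8 had a probe set under their symbol and are described here, among 18193 genes with a probe set in all. Mmp15 and Adamts2 had none under their symbol and were not analysed here. The 8 genes had 19 probe sets, and each gene is represented by the probe set that was brightest on average, with the other 11 as a check.

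Total RNA came from whole lungs of ICR mice, labelled female, at embryonic days 12, 14, 16 and 18 (E12, E14, E16 and E18), at postnatal days 2 and 10 (P2 and P10) and at postnatal day 30 (Adult). The study describes females as those bred for timed pregnancies and does not state the sex of embryos or pups. The day of the plug counted as day 0 of gestation, no gene had been altered and no agent given, and each of the 7 time points had 2 arrays, 14 in all. Lungs were dissected and pooled, and neither the number of lungs in a pool nor whether the replicates were separate pools is given in the sources used here. The p-values therefore measure the spread between these arrays, which may be technical.

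MMPs are zinc-dependent proteases that are made as inactive proenzymes, are secreted or held at the cell surface, and cut collagens, elastin and other matrix proteins once their propeptide is removed. TIMPs bind the active site of MMPs and block it. In the lung these enzymes remodel basement membrane and interstitial matrix while airways branch and while the walls between air spaces form and thin. ADAMTS proteases share the zinc-binding catalytic fold and act mainly on proteoglycans and procollagens.

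The deposited values are on the log2 scale and ran between 2.53 and 14.99, with array medians between 6.55 and 6.62. The median SD between replicates was 0.11 over probe sets with a highest time-point mean above 7, the level that counted as measured. Markers of lung epithelium averaged 11.39 and 11.36 in the Adult arrays and 9.28 and 9.20 in the E12 arrays, whereas those of liver stayed within 5.79 to 6.52 and those of skeletal muscle within 4.92 to 6.24 over the 14 arrays (mean log2 value of the list). E12 replicate 2 stood apart from E12 replicate 1 in skeletal muscle markers (6.24 against 5.29) and held the highest liver value (6.52 against 6.18). Without it all 7 genes called in Adult against E12 were still called, with differences of 4.07 for Timp3, 2.79 for Timp2, 1.26 for Adamts1, 0.94 for Mmp3, -0.74 for Mmp2, -1.40 for Mmp14 and -1.64 for Timp1. Heart muscle markers averaged 11.13 in E16 replicate 1 and 8.40 in E16 replicate 2. Between the same arrays the 8 genes described here differed by at most 0.28, which was the difference of Timp3. Without E16 replicate 1 the differences of the 6 genes called at E18 against E16 were 2.57 for Timp3, 1.02 for Timp2, 0.90 for Adamts1, 0.39 for Mmp2, 0.36 for Mmp11 and -1.27 for Timp1, and all 6 were still called. At E16 against E14 they were then 0.82 for Timp3 and 0.66 for Adamts1, both still called, whereas Mmp11 lost its call with -0.36 (adjusted p = 0.0774).

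All 8 genes passed the moderated F test across the 7 time points at an adjusted p under 0.05, as did 73.2% of the 18193 genes. With the study's further thresholds, a highest mean above 7 (Max) and a difference between highest and lowest mean above 1.2 (Range), 7 of the 8 counted as dynamic, against 26.7% of all genes. Mmp3 was the exception, with a Max of 5.89 and a Range of 1.14. The median Range of the 8 genes was 1.62, against 0.72 over all genes. Only 11663 of the 18193 genes had a Max above 7, and the 8 genes were chosen with earlier results of these data known. Both comparisons therefore describe the set and are no test of it. Timp3 had the widest Range, 3.94, which is a 15.4-fold difference, followed by Timp2 with 2.87 (7.29-fold) and Mmp14 with 2.30 (4.93-fold).

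**Figure D1:**
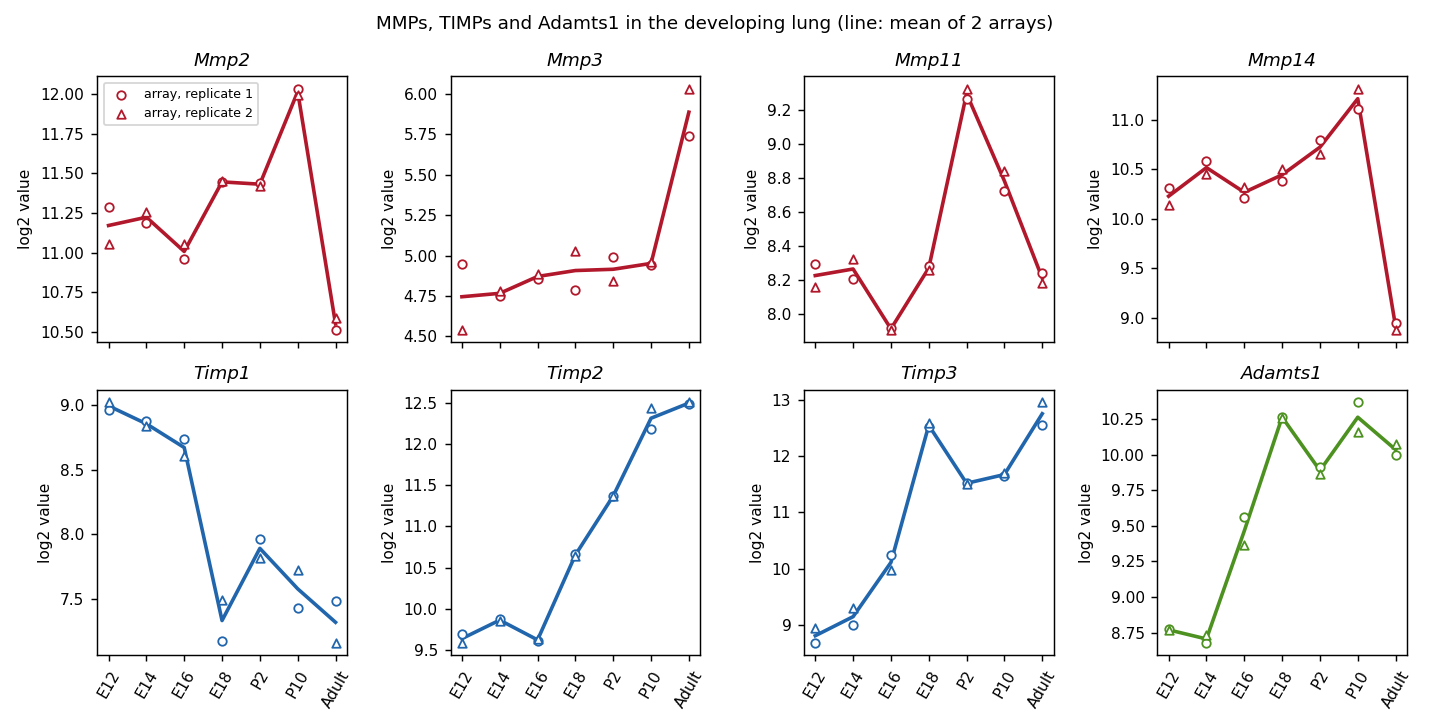
Log2 values of the 8 genes in each array (circles, replicate 1, and triangles, replicate 2) at the 7 time points, with a line through the means of 2 arrays and a separate y axis for each gene. Mmp2 and Mmp14 were highest at P10 and lowest in Adult, Timp1 was highest at E12, and Timp2 and Timp3 were highest in Adult.

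The differences did not run one way. Between Adult and E12, limma called 4 of the 8 genes higher (Mmp3, Timp2, Timp3 and Adamts1) and 3 lower (Mmp2, Mmp14 and Timp1), where 35% of all genes passed as higher and 30.2% as lower. The median difference was 0.56 for the 8 genes and 0.08 for all genes. None of the 8 passed between E14 and E12 in limma (3.41% of all genes were called higher and 0.918% lower) or with ordinary contrasts, and 3 genes had an unadjusted p under 0.05 there, namely Mmp14, Timp2 and Timp3. For E16 against E14 the higher genes were Timp3 and Adamts1 (background 9.95%) and the lower one was Mmp11 (10.6%).

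With all 14 arrays, more of the 8 genes were called at each step from E18 on than at E16 against E14. The shares over all genes were also larger at E18 against E16 and in Adult against P10 than at E16 against E14. At E18 against E16, Mmp2, Mmp11, Timp2, Timp3 and Adamts1 were higher (24.8% of all genes) and Timp1 was lower (21.6%). At P2 against E18, Mmp11, Timp1 and Timp2 were higher (8.58%) and Timp3 and Adamts1 lower (10%). This count of 5 was 3 without E18 replicate 1 and 3 without P2 replicate 1. At P10 against P2, Mmp2, Mmp14, Timp2 and Adamts1 were higher (4.82%) and Mmp11 was lower (4.37%), and this count of 5 was 3 without P2 replicate 1 and 3 without P2 replicate 2. In Adult against P10, Mmp3 and Timp3 were higher (16.8%) and Mmp2, Mmp11 and Mmp14 lower (14.9%).

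**Figure D2:**
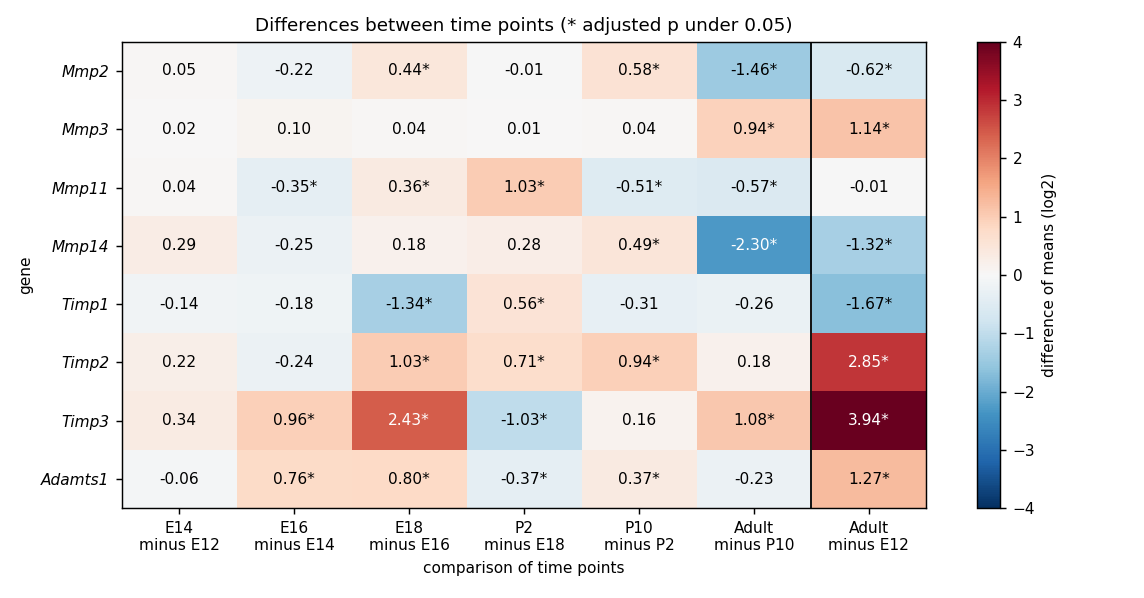
Difference of time-point means on the log2 scale (colour and number, later minus earlier) for 8 genes down the page and 7 comparisons across, with an asterisk where limma's adjusted p was under 0.05. In the column of Adult minus P10 the largest falls were those of Mmp14 (-2.30) and Mmp2 (-1.46), next to rises of Timp3 (1.08) and Mmp3 (0.94).

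Mmp14 encodes the membrane-anchored MT-MMP that cleaves fibrillar collagen at the cell surface and activates the proenzyme of Mmp2. Its arrays read 10.32 and 10.14 at E12, 10.58 and 10.46 at E14, 10.21 and 10.33 at E16, 10.39 and 10.50 at E18, 10.79 and 10.66 at P2, 11.11 and 11.32 at P10 and 8.94 and 8.88 in Adult. Every Adult array lay below every array of the other time points, and both P10 arrays lay above all others. Mmp14 rose at P10 against P2 by 0.49 (SE 0.11, adjusted p = 0.0134) and fell by 2.30 (SE 0.11, adjusted p = 8.81e-09) in Adult against P10, so that its Adult level was 4.93-fold below that of P10 and also 1.32 (SE 0.11, adjusted p = 9.56e-08) below that of E12.

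In the order of its levels, Mmp14 stood at 8.91 ± 0.045 in Adult (mean ± SD, n = 2), below E12, and at 11.21 ± 0.15 at P10, above P2. Neighbours among the levels of P2, E14, E18, E16 and E12, in this order, did not differ beyond their spread. Farther apart in this order, P2 was called higher than E16 by 0.46 (SE 0.11, adjusted p = 0.00355). It was also called higher than E12, by 0.50 (SE 0.11, adjusted p = 0.00133). A dimmer probe set of Mmp14 did not pass at P2 against E12 (0.27, SE 0.12, adjusted p = 0.0903), whereas the dimmest one did (0.61, SE 0.11, adjusted p = 0.000469). Both other probe sets of Mmp14 also fell in Adult against P10, by 2.27 (SE 0.12, adjusted p = 3.59e-08) and by 1.40 (SE 0.11, adjusted p = 1.06e-06). The rise at P10 against P2 was not called for either of them (adjusted p = 0.0813 and 0.106), and it also lost its call without P10 replicate 2 (adjusted p = 0.118), without P2 replicate 1 (0.0507) and without P2 replicate 2 (0.129).

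Mmp2, or gelatinase A, cuts denatured collagen and the collagen of basement membranes. It read 11.29 and 11.05 at E12, 11.19 and 11.26 at E14, 10.96 and 11.05 at E16, 11.44 and 11.45 at E18, 11.44 and 11.42 at P2, 12.03 and 11.99 at P10 and 10.51 and 10.59 in Adult. The P10 arrays were the highest and the Adult arrays the lowest, and neither pair overlapped with another time point. Mmp2 rose by 0.44 (SE 0.094, adjusted p = 0.00193) at E18 against E16, rose by 0.58 (SE 0.094, adjusted p = 0.00232) at P10 against P2 and fell by 1.46 (SE 0.094, adjusted p = 1.25e-07) in Adult against P10. Its Adult level was 0.62 (SE 0.094, adjusted p = 5.55e-05) below that of E12. At P2 against E18 the difference was -0.015 (SE 0.094, adjusted p = 0.947), with a 95% confidence interval -0.22 to 0.19.

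The other Mmp2 probe set gave 4 of the same 4 calls and fell in Adult against P10 by 1.42 (SE 0.094, adjusted p = 1.76e-07). Over the 7 time-point means, Mmp2 and Mmp14 had a Pearson r of 0.93, the highest between any MMP and another of the 8 genes. It is given as a description over 7 points that share their arrays. Markers of fibroblasts and mesenchyme, the cells known to express both genes, averaged 10.88 and 10.76 in the Adult arrays and 10.76 and 10.85 in the P10 arrays, but single markers moved in opposite directions. In Adult against P10, Col1a1 (-1.60) and Tcf21 (-1.41) were called lower, and Dcn (1.55), Lum (0.93) and Pdgfra (0.63) were called higher. The part of these cells in the values of Mmp2 and Mmp14 was not tested. In whole lungs, fewer cells of a type and less RNA per cell cannot be told apart.

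Mmp11, stromelysin-3, is unusual among secreted MMPs in being activated inside the cell by furin. It cuts serpins and other non-matrix proteins rather than fibrillar collagen. Its values were 8.29 and 8.16 at E12, 8.21 and 8.32 at E14, 7.92 and 7.91 at E16, 8.29 and 8.26 at E18, 9.27 and 9.33 at P2, 8.73 and 8.84 at P10 and 8.24 and 8.19 in Adult. Both P2 arrays were above all others, the P10 arrays came next, and the E16 arrays were below all others. Mmp11 rose by 1.03 (SE 0.089, adjusted p = 6.22e-06) at P2 against E18, which is 2.04-fold, and fell by 0.51 (SE 0.089, adjusted p = 0.00356) at P10 against P2 and by 0.57 (SE 0.089, adjusted p = 0.000285) in Adult against P10.

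In Adult against E12 Mmp11 did not pass, with a difference of -0.015 (SE 0.089, adjusted p = 0.900) and a 95% confidence interval -0.21 to 0.18. Its dip at E16 was small, -0.35 against E14 (adjusted p = 0.0150) and 0.36 at E18 against E16 (adjusted p = 0.00521). The E16 call against E14 was lost without E14 replicate 2 (adjusted p = 0.119), without E16 replicate 1 (0.0774) and without E16 replicate 2 (0.0630). Only 1 probe set carried its symbol, so its course has no second probe set as a check. Neutrophil markers, S100a8 and S100a9 among them, were also highest at P2, where the list averaged 10.86 and 10.60, against 8.85 and 9.13 at E18. Smooth muscle markers averaged 9.59 and 9.78 at E18, 11.24 and 11.11 at P2 and 11.28 and 11.36 at P10. The part of either cell type in the Mmp11 value was not tested.

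Mmp3, stromelysin-1, degrades a broad range of matrix proteins and activates other MMPs. Its arrays read 4.95 and 4.54 at E12, 4.75 and 4.78 at E14, 4.85 and 4.89 at E16, 4.79 and 5.03 at E18, 4.99 and 4.84 at P2, 4.94 and 4.96 at P10 and 5.74 and 6.03 in Adult, all of them below the level of 7 that counted as measured. The Adult arrays lay above all 12 others, which overlapped with each other across time points. Mmp3 rose by 0.94 (SE 0.14, adjusted p = 0.000177) in Adult against P10 and by 1.14 (SE 0.14, adjusted p = 5.77e-06) against E12, and no neighbours in the order of its other 6 levels differed beyond their spread. The size of this rise is uncertain at values so close to the lower end of the scale.

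The inhibitors took different courses from each other. Timp3, the TIMP that binds to the extracellular matrix and that also inhibits ADAM and ADAMTS proteases, read 8.68 and 8.94 at E12, 8.999 and 9.30 at E14, 10.25 and 9.97 at E16, 12.51 and 12.58 at E18, 11.53 and 11.51 at P2, 11.64 and 11.70 at P10 and 12.54 and 12.96 in Adult. The E12 and E14 arrays were the lowest, those of E18 and Adult the highest and overlapping, and those of P2 and P10 lay between them. It rose by 0.96 (SE 0.15, adjusted p = 0.000704) at E16 against E14 and by 2.43 (SE 0.15, adjusted p = 3.09e-08) at E18 against E16, which is 5.40-fold, the largest step of any of the 8 genes. Timp3 then fell by 1.03 (SE 0.15, adjusted p = 0.000419) at P2 against E18 and rose by 1.08 (SE 0.15, adjusted p = 0.000106) in Adult against P10.

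Between Adult and E12 the difference of Timp3 was 3.94 (SE 0.15, adjusted p = 4.94e-11), and the other 3 probe sets gave 3.63, 3.11 and 2.64. In Adult against E18 the probe set that stood for the gene did not pass, with 0.21 (SE 0.15, adjusted p = 0.322), whereas one of the others had Adult higher by 0.41 (SE 0.094, adjusted p = 0.00408). The fall at P2 was called by 2 of the other 3 probe sets, and the dimmest gave -0.58 (SE 0.21, adjusted p = 0.0795). At P10 against P2 the probe set with the highest mean gave 0.16 (SE 0.15, adjusted p = 0.660), while the other 3 lay below 0, between -0.57 and -0.25, and none was called.

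Timp2, which besides inhibiting MMPs forms the complex with Mmp14 in which the Mmp2 proenzyme is activated, read 9.70 and 9.59 at E12, 9.88 and 9.85 at E14, 9.62 and 9.64 at E16, 10.67 and 10.64 at E18, 11.37 and 11.37 at P2, 12.19 and 12.44 at P10 and 12.48 and 12.51 in Adult. The embryonic arrays before E18 stayed together near the lower end, and from E18 on each time point up to P10 lay above the one before it without overlap, as did Adult above P10 by a small margin. Timp2 rose by 1.03 (SE 0.095, adjusted p = 1.35e-06) at E18 against E16, by 0.71 (SE 0.095, adjusted p = 0.000216) at P2 against E18 and by 0.94 (SE 0.095, adjusted p = 6.04e-05) at P10 against P2. In Adult against P10 it did not pass, with a difference of 0.18 (SE 0.095, adjusted p = 0.191) and a 95% confidence interval -0.021 to 0.39. Against E12 the Adult level was higher by 2.85 (SE 0.095, adjusted p = 1.56e-11), which is 7.21-fold.

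Of the 5 other Timp2 probe sets, 4 gave all 4 of these calls in the same direction. The exception had a Max of 4.38 and a Range of 0.22 and did not pass the F test (adjusted p = 0.547), with values near the lower end of the scale throughout. Set beside its partners in that complex, the differences in Adult against P10 were 0.18 for Timp2, -2.30 for Mmp14 and -1.46 for Mmp2, of which those of Mmp14 and Mmp2 were called. At P10 against P2 all 3 were called higher, by 0.94, 0.49 and 0.58.

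Markers of some cell types were higher too as these 2 inhibitors rose at E18, and those of others were lower. Endothelial markers (4 genes) averaged 8.62 and 8.56 at E12, 9.13 and 9.25 at E14, 9.55 and 9.59 at E16, 10.51 and 10.51 at E18, 10.75 and 10.72 at P2, 10.93 and 10.98 at P10 and 11.38 and 11.48 in Adult. Mesothelial markers (4 genes) averaged 8.55 and 8.60 at E18, against 7.12 and 7.04 at E16, and those of lung epithelium 11.67 and 11.52 at E18, against 11.09 and 11.07 at E16. Single epithelial markers moved in opposite directions at this step. Sftpb (2.08) and Cdh1 (0.74) were called higher, Epcam (-1.13) was called lower, and Nkx2-1 (0.46) and Sftpc (0.42) were not called. Smooth muscle markers were lower at E18 (9.59 and 9.78) than at E16 (10.68 and 10.75). Those of fibroblasts and mesenchyme averaged 10.69 and 10.62 at E18, against 10.92 and 10.77 at E16, with single markers called in both directions. The part of any of these cells in the values of Timp2 and Timp3 was not tested.

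**Figure D3:**
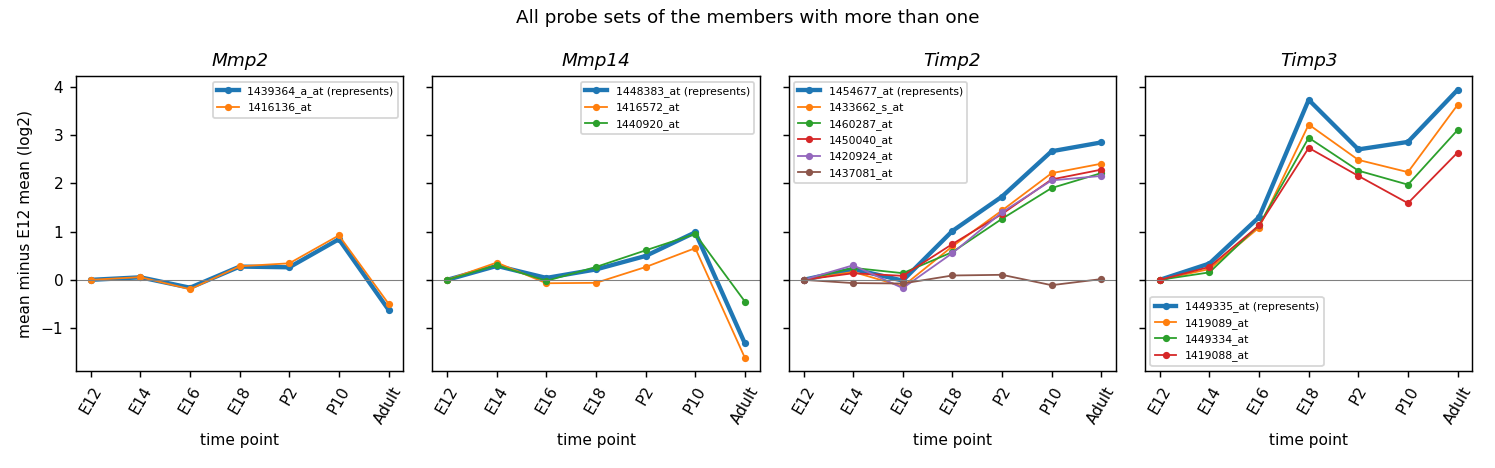
Time-point means of each probe set of Mmp2, Mmp14, Timp2 and Timp3 minus its own E12 mean (log2), with the probe set that stood for the gene as the thick line. All probe sets of Mmp2 and Mmp14 were lowest in Adult, and 1 of the 6 Timp2 probe sets stayed flat with a Range of 0.22.

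Timp1, an inducible inhibitor of most secreted MMPs, ran the other way. It read 8.96 and 9.03 at E12, 8.88 and 8.84 at E14, 8.74 and 8.61 at E16, 7.18 and 7.49 at E18, 7.96 and 7.82 at P2, 7.43 and 7.72 at P10 and 7.48 and 7.16 in Adult. The 6 arrays up to E16 lay above all 8 later ones, and the E18, P10 and Adult arrays overlapped. Timp1 fell by 1.34 (SE 0.14, adjusted p = 3.61e-06) at E18 against E16, which is 2.53-fold, and its Adult level was 1.67 (SE 0.14, adjusted p = 1.14e-07) below that of E12. A rise of 0.56 (SE 0.14, adjusted p = 0.0143) at P2 against E18 was lost without E18 replicate 1 (adjusted p = 0.155), without P2 replicate 1 (0.118) and with ordinary contrasts (0.0622).

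Over the 7 time-point means Timp1 had an r of -0.99 with Timp3, -0.94 with Adamts1 and -0.84 with Timp2. These values describe 7 points from the same arrays. In the order of its levels P2 (7.89 ± 0.10, mean ± SD, n = 2) lay below E16 (8.67 ± 0.095), and no other neighbours differed beyond their spread. Timp1 had 1 probe set under its symbol.

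Adamts1 encodes a secreted protease that cuts versican and aggrecan. It read 8.77 and 8.77 at E12, 8.68 and 8.74 at E14, 9.56 and 9.37 at E16, 10.27 and 10.26 at E18, 9.91 and 9.87 at P2, 10.37 and 10.16 at P10 and 9.997 and 10.07 in Adult. The E12 and E14 arrays were the lowest, the E16 arrays lay between them and all later arrays, and the E18, P10 and Adult arrays were close together. Adamts1 rose by 0.76 (SE 0.098, adjusted p = 0.000180) at E16 against E14 and by 0.80 (SE 0.098, adjusted p = 1.92e-05) at E18 against E16, and its Adult level was 1.27 (SE 0.098, adjusted p = 6.54e-08) above that of E12.

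Later steps of Adamts1 were small. It fell by 0.37 (SE 0.098, adjusted p = 0.0202) at P2 against E18, a call that was lost without either E18 array or either P2 array (adjusted p between 0.0739 and 0.125). The rise of 0.37 (SE 0.098, adjusted p = 0.0364) at P10 against P2 was lost with quantile normalization (adjusted p = 0.0522), with ordinary contrasts (0.0570) and without any of 5 arrays (0.0517 to 0.191), namely E14 replicates 1 and 2, P10 replicate 1 and P2 replicates 1 and 2. Its substrate versican, from Vcan, was at 7.45 ± 0.019 at E18 against 10.61 ± 0.12 at E16 (log2 mean ± SD, n = 2), a fall of 3.15 (SE 0.20, adjusted p = 4.11e-08). At P2 Vcan was higher than at E18 by 2.82 (SE 0.20, adjusted p = 1.01e-06), so that at both steps the called differences of Vcan and Adamts1 had opposite signs. This was not particular to Adamts1. Among 14 other ADAMTS genes, Adamts9 (0.52 and -0.93), Adamts10 (0.87 and -0.43) and Adamts15 (1.80 and -0.92) were also called higher at E18 and lower at P2. They are named after their values were seen. In all, 5 of the 14 were called higher and 4 lower at E18, and 2 higher and 5 lower at P2. These are RNA levels, and versican protein was not measured here. Smooth muscle markers (4 genes) were also low at E18 in the same arrays, with averages of 10.68 and 10.75 at E16, 9.59 and 9.78 at E18 and 11.24 and 11.11 at P2, and their part in the Vcan values was not tested. The largest step of Vcan was a fall of 3.44 (SE 0.20, adjusted p = 5.50e-08) in Adult against P10. There the difference of Adamts1 had the same sign, -0.23 (SE 0.098, adjusted p = 0.113), and was not called.

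Because Timp3 and Adamts1 were called in the same direction at the same 3 consecutive steps from E14 to P2 and Timp1 fell as they rose at E18, their promoters are shown together with that of Mmp3, which was called higher in Adult alone. RefSeq windows on GRCm38.p6 hold 250 bases before and 50 after each start site, written along the gene's strand. Capitals mark matches to 3 motifs searched on both strands, which did not overlap in these windows: AP-1 (TGANTCA), the GC box (GGGCGG) and the TATA box (TATAAA). The windows are chr10:86300162-86300461 on the plus strand for Timp3, chr16:85803064-85803363 on the minus strand for Adamts1, chrX:20869916-20870215 on the plus strand for Timp1 and chr9:7445572-7445871 on the plus strand for Mmp3.
Timp3: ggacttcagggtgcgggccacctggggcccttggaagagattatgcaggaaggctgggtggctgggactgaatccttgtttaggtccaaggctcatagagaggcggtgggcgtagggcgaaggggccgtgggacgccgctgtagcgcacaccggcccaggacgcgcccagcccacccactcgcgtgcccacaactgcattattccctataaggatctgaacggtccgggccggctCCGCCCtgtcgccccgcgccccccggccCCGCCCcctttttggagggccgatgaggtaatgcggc
Adamts1: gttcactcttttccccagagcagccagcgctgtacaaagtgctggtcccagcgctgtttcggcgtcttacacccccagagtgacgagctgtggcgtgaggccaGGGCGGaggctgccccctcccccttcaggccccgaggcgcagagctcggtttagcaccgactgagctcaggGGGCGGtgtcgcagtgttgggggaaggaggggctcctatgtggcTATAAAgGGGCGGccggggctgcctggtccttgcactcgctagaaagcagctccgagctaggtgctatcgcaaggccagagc
Timp1: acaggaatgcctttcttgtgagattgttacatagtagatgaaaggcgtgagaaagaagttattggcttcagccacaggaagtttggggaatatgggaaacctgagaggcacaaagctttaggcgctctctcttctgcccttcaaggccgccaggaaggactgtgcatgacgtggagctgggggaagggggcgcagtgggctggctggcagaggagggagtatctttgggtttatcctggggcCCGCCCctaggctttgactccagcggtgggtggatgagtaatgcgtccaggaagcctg
Mmp3: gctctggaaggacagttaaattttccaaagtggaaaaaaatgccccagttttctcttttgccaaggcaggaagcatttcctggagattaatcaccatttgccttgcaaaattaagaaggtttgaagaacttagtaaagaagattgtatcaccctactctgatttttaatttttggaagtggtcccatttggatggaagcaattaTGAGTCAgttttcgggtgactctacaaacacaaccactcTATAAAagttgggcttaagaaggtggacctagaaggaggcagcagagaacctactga

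The Timp3 window had GC boxes starting at -15 and 14 from the start site, the Timp1 window had 1 at -8, and the Adamts1 window had 3 as well as a TATA box at -32. Mmp3 had no GC box in its window, an AP-1 match at -46 and a TATA box at -7. Windows were found for 9 of the 10 genes, Mmp15 and Adamts2 included, and 8 of them held a GC box, 2 a TATA box and 1 an AP-1 match. Of 32851 promoter windows of this length, 35.7% held a GC box, 13.6% a TATA box and 7.81% an AP-1 match. A match is a run of letters and no measurement of binding, and no match says only that these letters are not in the window.

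Genes whose courses were most like those of the 7 dynamic genes were taken as the 3 with the highest Pearson r over the 7 time-point means, among 4751 other dynamic genes. Clones, predicted genes and accession-like names (112 of the 4864 dynamic genes) had been left out by name. For Mmp2 they were Adgra2 (0.975), an adhesion receptor of the Wnt pathway in vessels, Rerg (0.963), a small GTPase, and Apcdd1 (0.953), a Wnt inhibitor. For Mmp14 they were C1qtnf6 (0.971), Cacnb2 (0.963), a calcium channel subunit, and Fstl1 (0.960), a secreted BMP antagonist. Mmp11 had the weakest matches, Slc17a2 (0.915), Stfa2l1 (0.878), a stefin, and Fbln2 (0.865), a fibulin of elastic fibres and basement membranes.

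Timp1 was matched most closely by Psmd14 (0.998), a deubiquitinase of the proteasome, Tubgcp2 (0.998), of the gamma-tubulin complex, and Kpnb1 (0.997), a nuclear import receptor. For Timp2 these were the taurine transporter gene Slc6a6 (0.999), Ppp1r12b (0.995), a myosin phosphatase subunit, and the Hippo kinase gene Lats2 (0.995). Timp3 went with Susd6 (0.999), H6pd (0.998), an enzyme that supplies NADPH in the endoplasmic reticulum, and Tor3a (0.998). The nearest to Adamts1 were Trp53inp1 (0.995), Rhbdf2 (0.993), which guides Adam17 to the cell surface, and Retnla (0.992), a resistin-like secreted protein. Of these 21 genes, 13 were also among the top 3 when r was taken over the 14 arrays. Those that were not were C1qtnf6, Psmd14, Tubgcp2, Kpnb1, Lats2, H6pd, Tor3a and Retnla, among them all the genes named for Timp1.

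Among 14 other MMP genes with a probe set, 5 reached a Max above 7, as did 11663 of all 18193 genes. Of the 14, 4 were dynamic, a share close to the 26.7% of all genes. The median difference of the 14 in Adult against E12 was 0.34, with 7 called higher and 1 called lower, where 35% and 30.2% of all genes were. Mmp8, the collagenase of neutrophils, was at 5.08 ± 0.0076 at E16, 6.75 ± 0.29 at E18 and 7.18 ± 0.51 at P2 (log2 mean ± SD, n = 2). It rose at E18 against E16 by 1.66 (SE 0.22, adjusted p = 3.41e-05) and fell at P10 against P2 by 1.42 (SE 0.22, adjusted p = 0.00161). Mmp16, a membrane-type MMP, fell in Adult against E12 by 1.88 (SE 0.19, adjusted p = 7.76e-07), and Mmp23 fell in Adult against P10 by 1.27 (SE 0.25, adjusted p = 0.00154), though its Adult arrays differed widely (7.87 ± 0.73). Mmp9, gelatinase B, the remaining dynamic one and named after its values were seen, was higher at P2 than at E18 by 0.98 (SE 0.13, adjusted p = 0.000181) and higher in Adult than at P10 by 0.52 (SE 0.13, adjusted p = 0.00778).

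Neutrophil markers averaged 6.09 and 5.93 in the E12 arrays, 7.17 and 6.61 at E16, 8.85 and 9.13 at E18, 10.86 and 10.60 at P2 and 9.18 and 9.16 at P10. All 5 listed genes had a probe set, and their part in the values of Mmp8 and Mmp9 was not tested. Macrophage markers (5 genes) averaged 9.40 and 9.42 in Adult and 8.87 and 8.57 at P10, and their part in the Adult values of Mmp9 and Mmp3 was not tested.

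Of the 14 other ADAMTS genes with a probe set, 9 were dynamic (26.7% of all genes), and 4 were higher (35%) and 8 lower (30.2%) in Adult than at E12, with a median of -0.57. Adamts20 fell by 2.91 (SE 0.23, adjusted p = 8.57e-08) between these time points and was lowest at P10 (3.69 ± 0.088, against 8.75 ± 0.055 at E12). Adamts12 stood at 9.43 ± 0.043 at P10 and fell in Adult by 3.24 (SE 0.17, adjusted p = 2.15e-08), as Mmp14 and Mmp2 did over this step. Adamts8 was also highest at P10, where it had risen against P2 by 1.17 (SE 0.12, adjusted p = 5.6e-05). At P10 against P2, 7 of the 14 were higher and 1 lower, where 4.82% and 4.37% of all genes were.

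Of the 5 other inhibitors listed, A2m and Reck reached a Max above 7, as did 11663 of all 18193 genes. A2m was the dynamic one (26.7% of all genes). In Adult against E12, Timp4, Reck and Tfpi2 were called higher (35% of all genes) and A2m lower (30.2%). A2m, a protease-trapping macroglobulin, was at 5.51 ± 0.033 in Adult and at 8.17 ± 0.11 at P10, a fall of 2.65 (SE 0.37, adjusted p = 0.000126), and its E18 arrays stood apart from each other (8.28 ± 1.30). Reck, a membrane-anchored MMP inhibitor, was higher in Adult than at E12 by 0.67 (SE 0.12, adjusted p = 0.000188).

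All 9 listed ADAM genes passed the F test (73.2% of all genes) and 6 were dynamic (26.7%). The list had 6 genes higher (35%) and 1 lower (30.2%) in Adult than at E12, with a median of 0.81. Adam12, a protease of mesenchymal and muscle precursor cells, fell by 2.98 (SE 0.098, adjusted p = 1.46e-11) between them, Adam33 rose at P10 against P2 by 1.28 (SE 0.095, adjusted p = 5.61e-06), and Adam9 was higher in Adult than at E12 by 1.62 (SE 0.081, adjusted p = 7.51e-10). Among 10 activating proteases and receptors, 6 were dynamic (26.7% of all genes), with 5 called higher (35%) and 3 called lower (30.2%) in Adult than at E12. Plat, tissue plasminogen activator, rose at P2 against E18 by 1.47 (SE 0.12, adjusted p = 3.23e-06) and at P10 against P2 by 1.60 (SE 0.12, adjusted p = 5.57e-06), then fell in Adult against P10 by 1.61 (SE 0.12, adjusted p = 4.17e-07). Bmp1, the procollagen C-proteinase, fell in Adult against P10 by 1.59 (SE 0.12, adjusted p = 4.98e-07).

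Pcsk6, a proprotein convertase, was highest at E16 and fell at E18 by 1.09 (SE 0.12, adjusted p = 7.56e-06). Furin, which activates Mmp11 and Mmp14 and was named after its values were seen, was highest at P10 (8.87 ± 0.34) and higher there than at P2 by 0.69 (SE 0.15, adjusted p = 0.0136). The 2 plasminogen inhibitor genes with a probe set, Serpinb2 and Serpinf2, were not dynamic. Among 7 listed matrix substrates of these enzymes, 6 were dynamic (26.7% of all genes). In Adult against P10, 7 were lower, with a median of -1.40, where 14.9% of all genes were lower. This short list was written with earlier results of these data known, so these shares describe it and are no test. Eln, the gene of elastin, fell by 2.996 (SE 0.18, adjusted p = 9.01e-08) in Adult against P10. Col4a1, which encodes a basement membrane collagen, fell by 0.93 (SE 0.098, adjusted p = 1.03e-05) there.

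**Figure D4:**
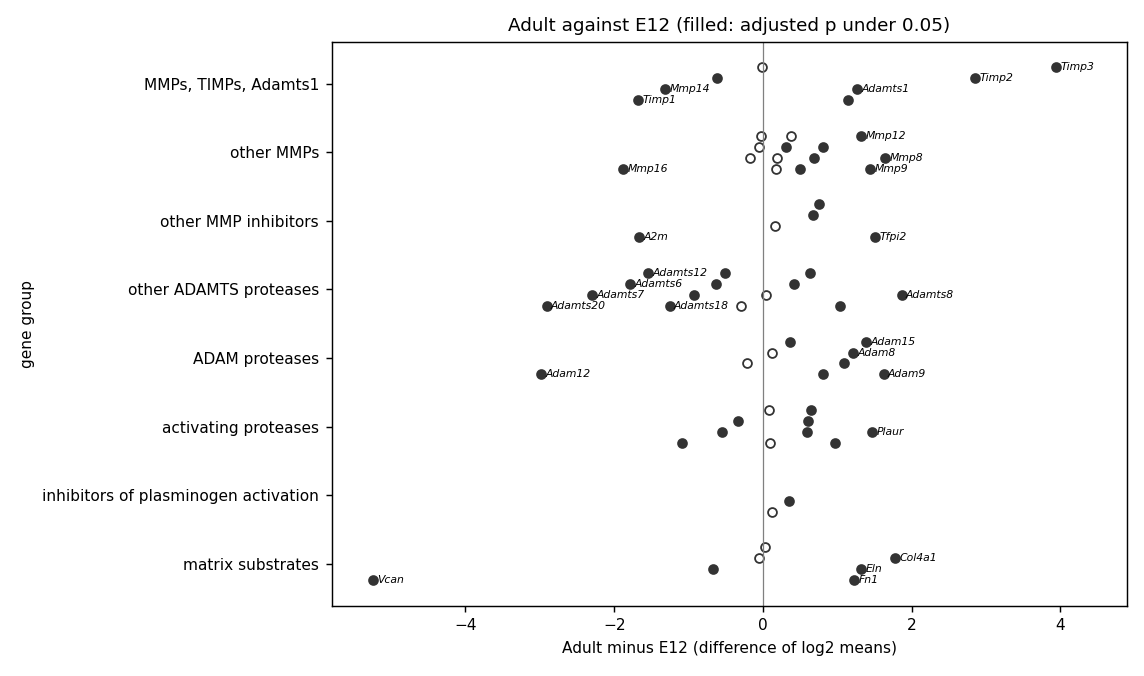
Adult minus E12 difference of log2 means for each gene with a probe set, by gene group from top to bottom, with filled circles where limma's adjusted p was under 0.05 and names where the difference was above 1.2 in size. In the top row Timp3 and Timp2 lie farthest to the right (3.94 and 2.85) and Timp1 farthest to the left (-1.67).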

How the data were processed

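Affymetrix mouse genome arrays had been hybridized with RNA of pooled lungs. The authors deposited log2 values for each probe set and array, made in Partek Genomics Suite 6.4. The methods name Robust Multichip Average and the submitters' processing notes GCRMA, so the normalization method is uncertain, and GCRMA can bring dim values closer together. The 64 control probe sets were left out, which left 45037. Gene names came from the platform annotation (34945 probe sets with 1 symbol, 932 with several, 9160 with none). The files give no scan date or batch.

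In R 4.3.3 with limma 3.58.1, 1 model with a mean for each time point was fitted to all 45037 probe sets over the 14 arrays (residual df 7, prior df 6.04). Moderated F tests and contrasts were two-sided and p-values were adjusted by the Benjamini-Hochberg method over all probe sets. A difference was called at an adjusted p under 0.05, and 95% confidence intervals are for the single contrast. With 2 arrays per time point, their number limits the precision. The fit was tested on simulated data.

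Named genes are the 10 members and, for each gene list, up to 3 genes of widest Range among those that passed the F test and Max. Members and lists were chosen with earlier results of these data known. Same-numbered replicates shared only a number (r of their deviations over 0.1 in 2 of 21 pairs of time points). Alternatives were quantile normalization, median centring, only probe sets with Max above 7, an intensity trend, ordinary F tests and contrasts, other probe set choices, a replicate block, stricter thresholds and each array left out.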

Additional observations from a re-analysis of the deposited data

How the results depend on the processing

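The number of dynamic genes stayed at 7 with each array left out and was 3 with a Range above 2 (Mmp14, Timp2 and Timp3). When a called gene also needed a difference of over 1.2 and a mean over 7 at 1 of the time points, 0 of 3 called genes were left for E16 against E14, 2 of 6 for E18 against E16, 0 of 5 for P2 against E18, 0 of 5 for P10 against P2 and 2 of 5 for Adult against P10. With each of the 14 arrays left out, the called genes stayed at 7 for Adult against E12, at 0 for E14 against E12 and at 6 for E18 against E16, and ran from 2 to 3 for E16 against E14, 3 to 5 for P2 against E18, 3 to 5 for P10 against P2 and 5 to 7 for Adult against P10. Of the 21 most similar genes, 13 were also found over the 14 arrays. With the replicate number as a block, no call of the 8 genes was lost or gained (7 called for Adult against E12), and the replicates shared only a number.

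None of the 31 called differences changed sign under any alternative. Differences that were not called changed sign in 5 cases under other settings and in 10 with an array left out. With quantile normalization Mmp11 was at 0.068 in Adult against E12 and Mmp3 at -0.020 at P2 against E18, with median centring Mmp3 was at -0.013 at E18 against E16, and with the mean of all probe sets Mmp2 was at 0.023 at P2 against E18 and Timp3 at -0.24 at P10 against P2. With each array left out, Mmp2 ran between -0.066 and 0.17, Mmp3 between -0.18 and 0.23 and Mmp11 between -0.027 and 0.10 at E14 against E12. Mmp11 ran between -0.080 and 0.0505 in Adult against E12, and Mmp3 between -0.083 and 0.16 at E18 against E16, between -0.11 and 0.13 at P2 against E18 and between -0.038 and 0.11 at P10 against P2. The cause of these changes was not tested. Calls gained by single alternatives were those of Mmp14 at E16 against E14 (mean of all probe sets, adjusted p = 0.0161) and at P2 against E18 (same setting, 0.0237, and quantile normalization, 0.0439), of Timp2 at E16 against E14 (intensity trend, 0.0447) and in Adult against P10 (without P10 replicate 2, 0.0436), and of Adamts1 in Adult against P10 (without P10 replicate 2, 0.0484). Signal near the lower end of the arrays limits what can be said of Mmp3.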
